A study of Mus musculus with 8 samples.

Results

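The genes described here are 7 genes known as oestrogen-induced products of uterine epithelium: Ltf, Lcn2, Muc1, Padi1, C3, Krt4 and Clca3a1. They were chosen by name, without a threshold on a measured value but with earlier results of these data known. The count tables list 23420 gene symbols, and 6 of the 7 genes have a row under their own symbol. Clca3a1 was read from the row named Clca1, its older symbol. The gene now called Clca1 was read from the row named Clca3 in the same way. Both matches rest on RefSeq synonyms and on elimination within the family, and were not checked otherwise. Of the 7 genes, 6 passed the filter on low counts, with 14598 genes passing in all, and Krt4 did not.

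Polyadenylated RNA from cells labelled as uterine stroma was sequenced in 8 libraries, 4 from females labelled Erbb3f/f and 4 from females labelled Erbb3d/d. All were labelled day 3. In common notation f stands for a floxed allele, one that Cre recombinase can remove, and d for that allele once deleted. The labels name no Cre line, no age, no event from which the day is counted and no number of animals per library, so p-values measure the spread between these libraries, which may be technical in part. The libraries held 8578575 to 12854367 reads in genes. Erbb3, the targeted gene, was at 7.40, 10.6, 8.24 and 12.3 CPM (reads scaled to library size, the usual depth-corrected unit) in Erbb3f/f replicates 1 to 4 and 7.36, 14.3, 17.6 and 16.2 CPM in Erbb3d/d replicates 1 to 4. Counted over the whole gene, the target was thus not lower under the label Erbb3d/d, and all directions below are those of the labels. Such a count does not show whether single exons were lost. All 10 stromal transcripts examined were detected, led by Col3a1 at 3443 ± 409 CPM in Erbb3f/f. Detection alone does not set stroma apart from mixed tissue. The epithelial markers were present as well, with a summed level of 1144 to 2970 CPM over 20 genes.

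Oestrogen acts on the uterus through the receptor ESR1 in both epithelium and stroma. In the epithelium it drives cell growth and a secretory programme whose products line the lumen or enter the uterine fluid. Ltf, which encodes the iron-binding protein lactotransferrin, is the classical member of that programme, and progesterone is known to restrain much of it. Epcam encodes a cell adhesion molecule of epithelial cells that stroma is known to lack, so its level served as a marker of epithelial RNA in each library. A single marker cannot separate the amount of epithelium from its state, and some epithelial genes did not follow it, as given below.

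The oestrogen receptor is known to bind a palindrome with a short spacer, and single half-sites near other factors. The 250 bases before the RefSeq transcription start were searched on both strands for GGTCA and for the full palindrome, in which GGTCA is followed, after 3 free bases, by its reverse complement TGACC. Sequences were from RefSeq on GRCm38.p6, which held an entry for 6 of the 7 genes. The promoters of Ltf and C3 are shown because they held the half-site, and that of Padi1 because Padi1 followed Epcam most closely and held no match. Capitals mark the half-site, and each sequence runs 5′ to 3′ along the gene. The Ltf window is chr9:111019042-111019291 on the plus strand, the C3 window chr17:57228137-57228386 on the minus strand and the Padi1 window chr4:140845779-140846028 on the minus strand.
Ltf: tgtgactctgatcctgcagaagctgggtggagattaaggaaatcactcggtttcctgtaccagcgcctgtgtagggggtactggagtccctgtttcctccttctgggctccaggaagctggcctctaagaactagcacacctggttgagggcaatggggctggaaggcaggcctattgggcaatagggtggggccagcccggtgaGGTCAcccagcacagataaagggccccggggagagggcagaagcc
C3: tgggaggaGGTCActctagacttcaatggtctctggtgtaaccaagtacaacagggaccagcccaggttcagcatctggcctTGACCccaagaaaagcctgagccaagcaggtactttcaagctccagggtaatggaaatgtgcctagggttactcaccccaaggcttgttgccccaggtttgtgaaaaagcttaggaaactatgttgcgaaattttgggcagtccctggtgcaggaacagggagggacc
Padi1: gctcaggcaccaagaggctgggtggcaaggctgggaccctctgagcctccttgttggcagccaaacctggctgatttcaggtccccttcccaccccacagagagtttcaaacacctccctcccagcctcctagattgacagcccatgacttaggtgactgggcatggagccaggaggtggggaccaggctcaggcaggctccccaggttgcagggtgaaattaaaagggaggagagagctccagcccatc
Counted from the start, the half-site of Ltf lay at -45 on the gene's own strand. In C3 it lay at -242 on that strand and at -168 on the other. The windows of Muc1, Lcn2, Padi1 and Clca3a1 held no match. Of all 32851 promoter windows, 35.2% held the half-site and 0.0639% the full palindrome, which none of the 6 genes held. A match of 5 letters in 2 of 6 windows is near the share among all promoters.

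The levels of the 7 genes spanned a wide range. Per kilobase of merged exon, the mean over the 8 libraries was 33.3 ± 20 CPM per kb for Ltf, 30.9 ± 13.1 for Muc1 and 22.1 ± 10.8 for C3 (SD, n = 8). Padi1 had 6.05 ± 3.58, Lcn2 5.21 ± 4.20, Clca3a1 1.17 ± 0.621 and Krt4 0.171 ± 0.132 CPM per kb (SD, n = 8). Epcam stood at 52.5 ± 25.1 CPM per kb. Ltf, Muc1 and C3 were not separated from each other beyond their spread, and neither were Padi1 and Lcn2.

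The first comparison was between the libraries of the 2 labels. The 4 genes Ltf, Lcn2, Muc1 and Padi1 were each highest in Erbb3d/d replicates 3 and 4, whereas Erbb3d/d replicates 1 and 2 lay within the range of Erbb3f/f or below it. C3 and Clca3a1 had other patterns, and Krt4 was hardly detected. In edgeR's quasi-likelihood test 0 of the 6 tested genes reached the threshold of 0.05 on the adjusted p, as did 0% of all 14598 genes. The libraries of the labels overlapped for each of the 7 genes, while over all genes 5.05% did not overlap and 2.57% had every Erbb3d/d library above every Erbb3f/f library. At an unadjusted p under 0.05 there was 1 of 6, Padi1, against 11.6% of all genes. The fitted log2 fold change was above 0 for 5 of 6, with a median of 0.68, against 48% and a median of -0.01 over all genes. In bulk RNA, more cells of a type and more RNA per cell cannot be told apart.

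**Figure D1:**
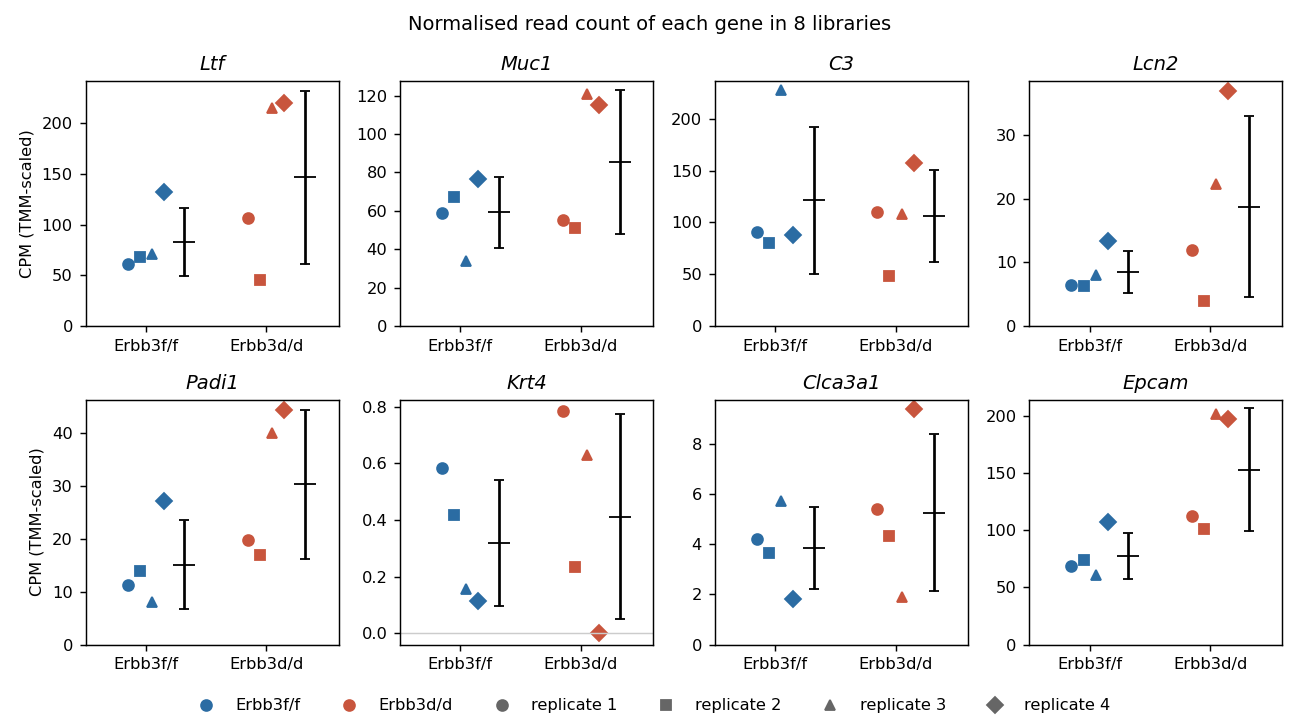
TMM-scaled read count (CPM, linear axis from 0) of the 7 genes and Epcam in each library, with Erbb3f/f in blue, Erbb3d/d in red, symbols for replicates 1 to 4, and the mean ± SD of 4 libraries in black. Erbb3d/d replicates 3 and 4 are the highest libraries for Ltf, Muc1, Lcn2, Padi1 and Epcam, C3 is highest in Erbb3f/f replicate 3 at 227 CPM, and Krt4 stays under 1 CPM.

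Ltf lies on chromosome 9 at 111019271 to 111042767 on the plus strand (GRCm38, GENCODE vM21), with 18 merged exons. It had 60.8, 67.9, 70.7 and 132 CPM in Erbb3f/f replicates 1 to 4, and 107, 45.2, 215 and 220 CPM in Erbb3d/d replicates 1 to 4. The highest libraries, Erbb3d/d replicates 3 and 4, and the lowest, Erbb3d/d replicate 2, carried the same label, so the groups overlapped. The mean ± SD of 4 libraries was 82.9 ± 33.2 CPM under the Erbb3f/f label and 147 ± 85.5 CPM under Erbb3d/d. This gave a log2 fold change of 0.83 (SE 0.47) (edgeR, adjusted p = 0.527). A difference of this size was smaller than the spread between the libraries labelled Erbb3d/d.

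Lcn2 encodes lipocalin 2, a secreted protein that binds bacterial siderophores and so withholds iron, and lies on chromosome 2 at 32384633 to 32388252. Replicates 1 to 4 had 6.52, 6.28, 8.0 and 13.3 CPM under Erbb3f/f, from 67, 60, 102 and 118 reads. Under Erbb3d/d they had 12, 3.96, 22.3 and 36.9 CPM, from 122, 34, 283 and 421 reads. The order of the libraries was the same as for Ltf, except that Erbb3f/f replicates 1 and 2 changed places. Lcn2 had the widest range of the 6 tested genes, the highest library being 9.31 times the lowest. The log2 fold change was 1.15 (SE 0.57; edgeR, adjusted p = 0.479), and it was 0.60 without Erbb3d/d replicate 4.

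Muc1 encodes a transmembrane mucin of the apical surface, known as a barrier to attachment of the embryo, and lies on chromosome 3 at 89229057 to 89233381. Its levels were 58.9, 67.4, 33.7 and 76.7 CPM in Erbb3f/f replicates 1 to 4, and 55.3, 51.3, 121 and 115 CPM in Erbb3d/d replicates 1 to 4. Erbb3d/d replicates 1 and 2 fell inside the Erbb3f/f range, and replicates 3 and 4 above it. The log2 fold change was 0.54 (SE 0.35; edgeR, adjusted p = 0.574). It was 0.33 without Erbb3d/d replicate 3 and 0.34 without Erbb3f/f replicate 3.

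Padi1 encodes a peptidylarginine deiminase, an enzyme that converts arginine in proteins to citrulline, and lies on chromosome 4 at 140812983 to 140845778. It was at 11.3, 14.0, 8.0 and 27.2 CPM in Erbb3f/f replicates 1 to 4, and at 19.7, 16.9, 40.1 and 44.5 CPM in Erbb3d/d replicates 1 to 4. Erbb3f/f replicate 4 exceeded Erbb3d/d replicates 1 and 2, so the groups overlapped here too. The mean ± SD of 4 libraries was 15.1 ± 8.43 CPM under the Erbb3f/f label and 30.3 ± 14.0 CPM under Erbb3d/d. This gave a log2 fold change of 1.02 (SE 0.43) (edgeR, adjusted p = 0.417). The exons of Padi1 overlap those of Gm13032 on the other strand, and the libraries were non-directional, so reads of the 2 genes cannot be told apart.

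C3 encodes the central protein of the complement cascade and is made by epithelial, stromal and myeloid cells. The gene lies on chromosome 17 at 57203970 to 57228136. It was at 90.3, 80.4, 227 and 87.4 CPM in Erbb3f/f replicates 1 to 4, and at 110, 48.5, 108 and 157 CPM in Erbb3d/d replicates 1 to 4. The highest library was thus Erbb3f/f replicate 3, in which Epcam, Muc1 and Padi1 were at their lowest. The log2 fold change was -0.20 (SE 0.42) (edgeR, adjusted p = 0.887). Without Erbb3f/f replicate 3 it was 0.30, and without Erbb3d/d replicate 2 it was 0.05, so either library alone decided the sign, and without any other single library it lay between -0.44 and -0.20.

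Krt4 encodes a keratin of stratified epithelia and lies on chromosome 15 at 101918535 to 101924735. Under Erbb3f/f, replicates 1 to 4 held 6, 4, 2 and 1 of its reads, and those labelled Erbb3d/d 8, 2, 8 and 0. The count of 0 allows up to 0.268 CPM in Erbb3d/d replicate 4 (3 reads, counting error only). A difference between the labels was not detectable at this depth. An exact permutation test, two-sided over the 70 assignments of the libraries, gave p = 0.771.

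Clca3a1 belongs to a family of secreted regulators of chloride channels and lies on chromosome 3 at 144729677 to 144760977. Under Erbb3f/f, replicates 1 to 4 held 43, 35, 73 and 16 of its reads, and those labelled Erbb3d/d 55, 37, 24 and 107. In CPM these were 4.18, 3.66, 5.73 and 1.81, and 5.40, 4.31, 1.89 and 9.38. Erbb3d/d replicates 3 and 4, which were alike for Ltf, Muc1 and Padi1, were next to the lowest and the highest library for Clca3a1. The log2 fold change was 0.43 (SE 0.48; edgeR, adjusted p = 0.761), and it was -0.01 without Erbb3d/d replicate 4, 0.72 without Erbb3d/d replicate 3, 0.70 without Erbb3f/f replicate 3 and 0.21 without Erbb3f/f replicate 4. The longest coding transcripts of Clca3a1 and its neighbour Clca3a2 were 88.0% identical, and an exon overlaps Gm34866 on the other strand, so this count is uncertain.

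The level of each gene was then set against Epcam, which asks whether the secretory genes follow this epithelial marker across the libraries. Epcam was at 68.6, 73.8, 60.7 and 107 CPM in Erbb3f/f replicates 1 to 4, and at 112, 101, 201 and 197 CPM in Erbb3d/d replicates 1 to 4. It was thus highest in the same libraries as Ltf, Lcn2, Muc1 and Padi1. Its own log2 fold change between the labels was 0.98 (SE 0.27), with an adjusted p of 0.284 by edgeR and 0.0145 by DESeq2. It exceeded every Erbb3f/f library in 3 of the 4 libraries labelled Erbb3d/d, and the groups overlapped through Erbb3d/d replicate 2.

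Ltf, Lcn2, Muc1 and Padi1 rose with Epcam over the 8 libraries, and C3 and Clca3a1 did not pass the test. The slope, in log2 units of the gene per log2 unit of Epcam, was 1.09 (SE 0.21) for Ltf, 1.32 (SE 0.26) for Lcn2, 0.79 (SE 0.15) for Muc1 and 1.28 (SE 0.14) for Padi1. Adjusted over all genes, the edgeR p was 0.0181, 0.0156, 0.0145 and 0.000418 in the same order. The calls of Ltf and Lcn2 ended with another epithelial gene in place of Epcam, with adjusted p-values of 0.0982 and 0.0669 for Krt8 and 0.154 and 0.147 for Cdh1 in edgeR. With the mean of the epithelial list that of Ltf was 0.0533 in edgeR. Without Erbb3d/d replicate 4 the edgeR adjusted p was 0.122 for Ltf, 0.131 for Lcn2 and 0.0991 for Muc1, and without Erbb3d/d replicate 3 it was 0.0877 for Ltf and 0.0920 for Muc1. Without Erbb3f/f replicate 1 it was 0.0541 for Ltf and 0.0505 for Lcn2. Padi1 was called in each of these fits. Calls over all genes also fell, from 976 to 339 with Krt8, 226 with Cdh1 and 573 with the list mean. They fell to 328 without Erbb3d/d replicate 3, 301 without Erbb3d/d replicate 4 and 586 without Erbb3f/f replicate 1. A slope of 1 would mean a gene in fixed proportion to Epcam. C3 had a slope of -0.07 (SE 0.33, edgeR adjusted p = 0.937) and Clca3a1 one of 0.15 (SE 0.37, edgeR adjusted p = 0.864). The 4 of 6 genes with a called slope, all positive, compare with 6.69% of 14597 genes called in either direction, 4.05% with a positive and 2.64% with a negative slope. The median slope of the 6 genes was 0.94, against -0.01 over all genes.

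**Figure D2:**
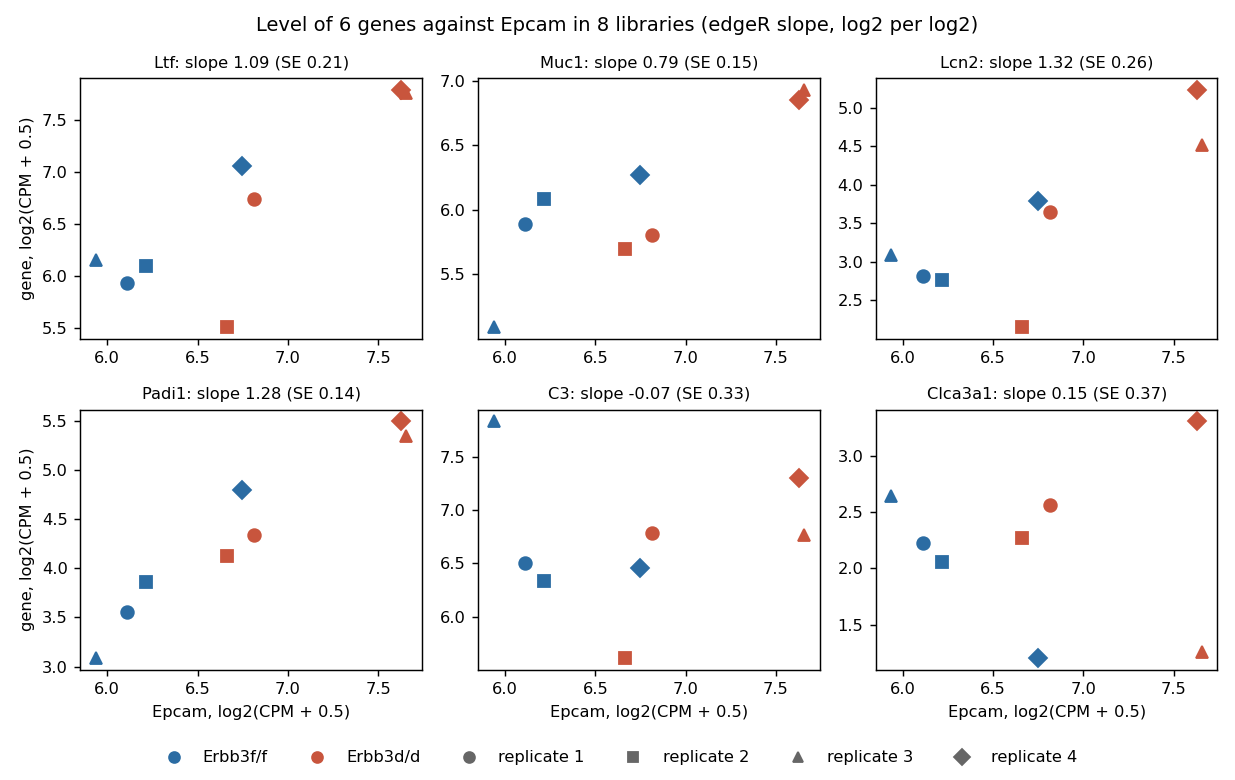
Level of 6 genes (vertical, log2 of CPM + 0.5) against Epcam (horizontal, same scale) in 8 libraries, with Erbb3f/f in blue, Erbb3d/d in red and symbols for replicates 1 to 4; each title gives the edgeR slope and its SE. Padi1 lies near a line through all 8 libraries, Ltf, Lcn2 and Muc1 scatter among the 6 libraries of lower Epcam, and the slopes of C3 and Clca3a1 did not pass the test.

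Correlations were computed over all libraries and again without the 2 libraries farthest from the median Epcam level. On log2(CPM + 0.5) over 8 libraries, Pearson's r with Epcam was 0.844 for Ltf (exact permutation p = 0.0107), 0.814 for Lcn2 (p = 0.0144), 0.861 for Muc1 (p = 0.00813) and 0.966 for Padi1 (p = 0.000174). These were 4 of the 6 tested genes, against 19.1% of all genes with an exact permutation p under 0.05 in either direction and 9.16% with a positive r. Spearman's rho was 0.738 for Ltf and for Muc1 (exact permutation p = 0.0458 each), 0.714 for Lcn2 (p = 0.0576) and 0.952 for Padi1 (p = 0.00114). Adjusted over 14597 genes, the exact permutation p of r was 0.137 for Ltf, 0.151 for Lcn2, 0.124 for Muc1 and 0.0634 for Padi1. That of rho was 0.320, 0.343, 0.320 and 0.137 in the same order. C3 had r = 0.03 and rho = 0.0952 (exact permutation p = 0.943 and 0.840, adjusted 0.977 and 0.945). Clca3a1 had r = -0.05 and rho = -0.12 (exact permutation p = 0.898 and 0.793, adjusted 0.960 and 0.928).

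Erbb3d/d replicates 3 and 4 were the 2 libraries farthest from the median Epcam level. In the other 6 libraries r was 0.436 for Ltf (exact permutation p = 0.375), 0.330 for Lcn2 (p = 0.496) and 0.509 for Muc1 (p = 0.328). For these 3 genes the relation was thus weaker and not resolved without those 2 libraries. Leaving them out also narrows the range of Epcam, which tends to lower r. With 1 library left out, r ran from 0.774 to 0.974 for Ltf, 0.711 to 0.943 for Lcn2 and 0.794 to 0.909 for Muc1. For Padi1 r in the 6 libraries was 0.921 (exact permutation p = 0.00833), so its relation was also seen among the 6. For C3 it was -0.54 and for Clca3a1 -0.38 (exact permutation p = 0.304 and 0.521). The edgeR slope over these 6 libraries was 0.79 (SE 0.49) for Ltf, 0.73 (SE 0.55) for Lcn2, 0.53 (SE 0.37) for Muc1 and 1.56 (SE 0.32) for Padi1. With these 6 libraries edgeR called none of the slopes (the smallest adjusted p was 0.511, for Padi1) and 0 of all genes.

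Because Epcam also tended to be higher in the libraries labelled Erbb3d/d, the slope was fitted with the genotype in the same model. The slope was then 1.64 (SE 0.27) for Ltf, 1.88 (SE 0.42) for Lcn2, 1.23 (SE 0.19) for Muc1 and 1.57 (SE 0.19) for Padi1. The edgeR adjusted p was 0.0316, 0.0796, 0.0154 and 0.00519, so 3 of 6 genes were called, against 1% of all genes in either direction and 0.87% with a positive slope. Within Erbb3f/f alone, replicate 4 had the highest Epcam, and it was also the highest for Ltf, Lcn2, Muc1 and Padi1. Replicate 3, with the lowest Epcam, was lowest of that label for Muc1 and Padi1 but next to the highest for Ltf and Lcn2. Erbb3f/f replicate 4 stood apart in genes of stratified epithelium, with a summed level of 165 CPM against 4.55 to 30.7 CPM in the other 7. The part of this in its values was not tested. With 4 libraries per genotype no correlation within a genotype was computed.

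At a given Epcam level the difference between the labels changed sign for these 4 genes. Fitted together with Epcam, the log2 fold change became -0.87 (SE 0.34) for Ltf, -0.88 (SE 0.54) for Lcn2, -0.69 (SE 0.23) for Muc1 and -0.46 (SE 0.23) for Padi1. C3 was also below 0, at -0.39 (SE 0.87), and Clca3a1 above, at 0.83 (SE 0.85), so 5 of 6 were below 0 against 50.1% of all genes. The adjusted p by edgeR was 0.999 for each, and 0% of all genes were called. At an unadjusted p under 0.05 there were 2 of 6, Ltf and Muc1, against 4.14% of all genes. Libraries with similar Epcam show what this fit rests on. Erbb3f/f replicate 4, the library with the stratified epithelial genes, had 107 CPM of Epcam, 132 CPM of Ltf, 76.7 of Muc1 and 27.2 of Padi1. Erbb3d/d replicate 1, with 112 CPM of Epcam, had 107, 55.3 and 19.7 CPM of these genes. Erbb3d/d replicate 2, with 101 CPM of Epcam, had 45.2, 51.3 and 16.9 CPM.

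**Figure D3:**
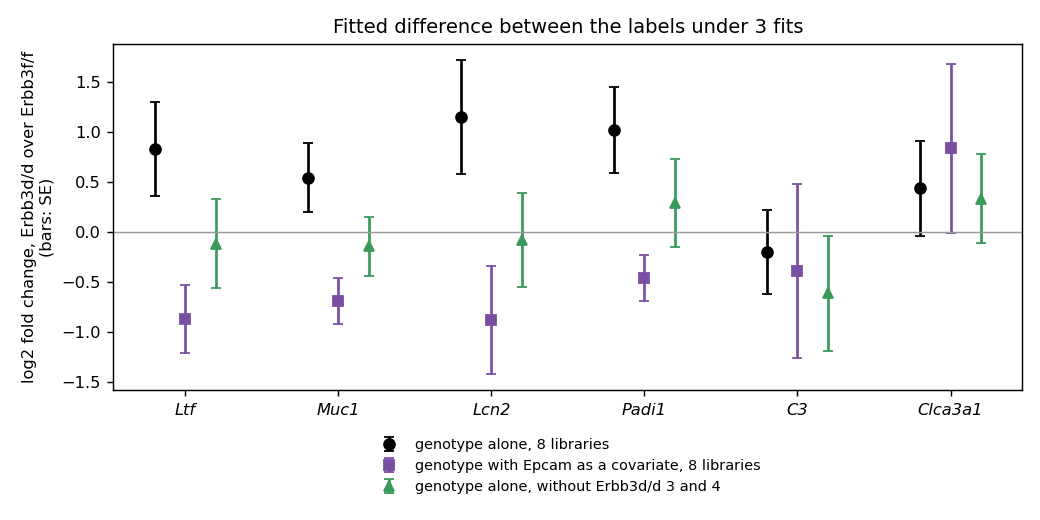
Log2 fold change, Erbb3d/d over Erbb3f/f by label (vertical, bars are SE), for 6 genes under 3 fits: genotype alone with 8 libraries (black), with Epcam as a covariate (purple), and genotype alone without Erbb3d/d replicates 3 and 4 (green). For Ltf the values are 0.83, -0.87 and -0.12, and no value shown has an edgeR adjusted p under 0.05.

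The ratio of each gene to Epcam was compared between the labels without a model. Ltf was at 0.887, 0.919, 1.16 and 1.24 times Epcam in Erbb3f/f replicates 1 to 4, and at 0.953, 0.449, 1.07 and 1.11 times in Erbb3d/d replicates 1 to 4. Only Erbb3d/d replicate 2 stood outside the Erbb3f/f range for Ltf. Muc1 was at 0.858, 0.912, 0.554 and 0.718 times Epcam in Erbb3f/f replicates 1 to 4, and at 0.493, 0.509, 0.601 and 0.582 in Erbb3d/d replicates 1 to 4. The 4 values of Muc1 in Erbb3d/d lay below 3 of the 4 in Erbb3f/f. The mean ratio of Muc1 was 0.761 ± 0.160 under Erbb3f/f and 0.546 ± 0.0532 under Erbb3d/d (SD, n = 4 each; two-sided exact permutation test on the log2 ratio, p = 0.0857).

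The ratio of Padi1 differed by less than its spread, with 0.185 ± 0.0521 under Erbb3f/f and 0.192 ± 0.0260 under Erbb3d/d (SD, n = 4 each; exact permutation p = 0.743). That of Lcn2 was 0.109 ± 0.0226 and 0.111 ± 0.0603 (SD, n = 4 each; exact permutation p = 0.771). C3 was at 1.32, 1.09, 3.74 and 0.818 times Epcam in Erbb3f/f and at 0.978, 0.481, 0.539 and 0.798 times in Erbb3d/d (exact permutation p = 0.0571). Ltf had p = 0.486 and Clca3a1 p = 0.429 in the same exact permutation test. The test cannot go below 0.0286, and 0 of the 6 genes were under 0.05, against 23.3% of all genes. Because Epcam itself was higher in Erbb3d/d, the mean log2 ratio was lower there for 98.2% of all genes, and for 5 of these 6. It was lower for the targeted gene Erbb3 as well. The ratio of Erbb3 was 0.125 ± 0.0166 under Erbb3f/f and 0.0944 ± 0.0332 under Erbb3d/d (SD, n = 4 each, exact permutation p = 0.114).

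**Figure D4:**
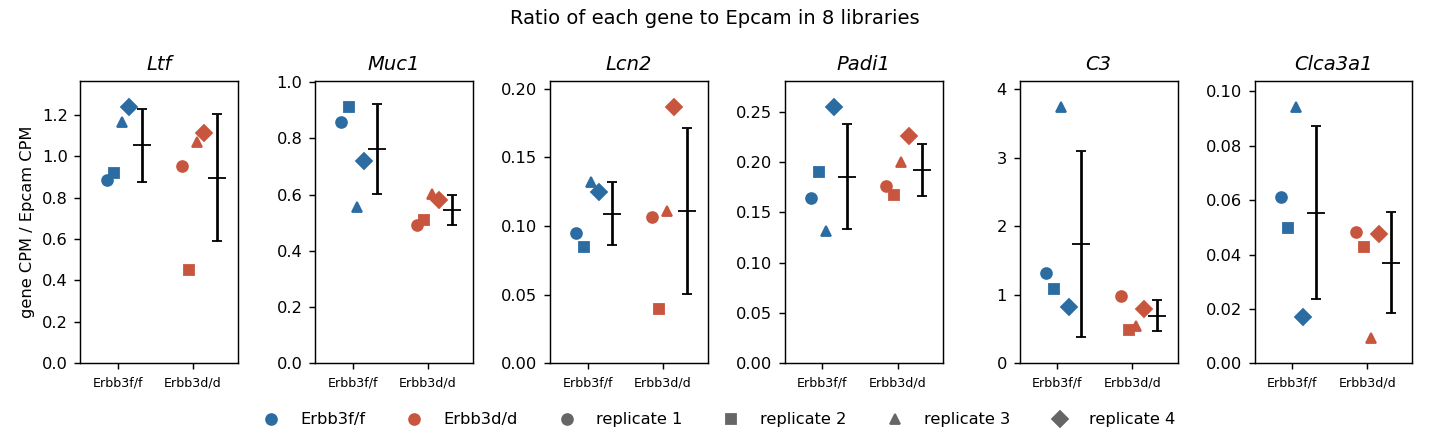
Ratio of each gene's CPM to that of Epcam in the same library (vertical, linear axis from 0) by label, with symbols for replicates 1 to 4 and the mean ± SD of 4 libraries in black. For Muc1 all 4 libraries labelled Erbb3d/d lie at or under 0.601, and for Padi1 the means are 0.185 and 0.192.

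Other genes with an oestrogen response in uterine epithelium were examined as a list of 15, of which 14 had a row and 11 were tested. All 11 had a fitted log2 fold change above 0, against 48% of all genes, with a median of 0.88. Of the 11, 0 were called, against 0% of all genes. Klf4, a transcription factor and the most abundant, was at 164 ± 31.5 CPM under the Erbb3f/f label and 211 ± 66.0 CPM under Erbb3d/d (SD, n = 4 each). Cftr, a chloride channel, had the smallest p-value, with a log2 fold change of 1.13 (edgeR adjusted p = 0.311). The slope on Epcam was called for 5 of the 11, all positive, against 4.05% of all genes with a positive call, and the median over the list was 0.96. Those 5, named after their values were seen, were the mucin Muc4 (slope 1.48), Clca1 from the row Clca3 (1.45), Cftr (1.12), the immunoglobulin transporter Pigr (0.96) and the transcription factor Klf5 (0.75). Sprr2a1 and Sprr2a2, genes of small proline-rich proteins, had no reads.

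Epithelial genes known to respond to progesterone had fitted values of the opposite sign. Of 9 genes, 8 were tested, all 8 with a fitted log2 fold change below 0, against 48% of all genes above 0. The median was -0.56, and 0 of the 8 were called, against 0% of all genes. The slope on Epcam was called for 2, both negative, against 2.64% of all genes with a negative call. They were Il13ra2, a cytokine receptor (slope -2.06, edgeR adjusted p = 0.00405), and Klf15, a transcription factor named after its values were seen (slope -1.01, edgeR adjusted p = 0.0149). Gata2, a transcription factor of the progesterone response and the most abundant of the list, was at 343 and 298 CPM in Erbb3f/f and Erbb3d/d. No test between the 2 lists was made.

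Receptors, coactivators and stromal relays of the oestrogen signal were split in direction. Of 15 genes, 14 were tested, 7 with a log2 fold change above 0, against 48% of all genes, and 7 below. Of the 14, 0 were called, against 0% of all genes. At an unadjusted edgeR p under 0.05 there were 5 of 14, against 11.6% of all genes. The libraries of the labels did not overlap for 4 of 14, against 5.05% of all genes. Esr1, the receptor itself and named for that reason, was at 431 CPM under Erbb3f/f and 449 CPM under Erbb3d/d, with a log2 fold change of 0.06 (edgeR adjusted p = 0.910). Greb1, a direct target of the receptor, had a slope on Epcam of 0.50 and Fgf18, a growth factor, one of 1.51, both called, and Fgf18 is named after its values were seen. Igf1, a stromal growth factor that acts on the epithelium and the most abundant of the list, had a called slope of -0.96. It was at 1563 CPM under Erbb3f/f and 746 CPM under Erbb3d/d, with a log2 fold change of -1.07 (edgeR adjusted p = 0.216). Positive slopes were called for 2 of 14 and negative ones for 1, against 4.05% and 2.64% of all genes.

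The general epithelial markers were read beside these lists. Of 20 genes, 18 had a log2 fold change above 0, against 48% of all genes, with a median of 0.60. Of the 20, 0 were called, against 0% of all genes. The slope on Epcam was called for 14 of the other 19, all positive, against 4.05% of all genes, with a median of 0.65. Wnt7a, a luminal WNT ligand, had the smallest p-value for genotype (log2 fold change 2.20, edgeR adjusted p = 0.279). Cldn3, a tight junction protein and the most abundant, was at 261 CPM under Erbb3f/f and 225 CPM under Erbb3d/d. Its slope on Epcam was -0.19 (SE 0.12, edgeR adjusted p = 0.427), so Epcam did not stand for every epithelial gene. Smooth muscle markers also had higher fitted values, with 6 of 6 above 0, against 48% of all genes, 0 called, and 6 of 6 at an unadjusted p under 0.05, against 11.6%. Their summed level was 719 to 1509 CPM under Erbb3f/f and 1455 to 3483 CPM under Erbb3d/d, and their part in the results was not tested.

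Neutrophils store LTF and LCN2 in their granules, so neutrophil markers were read beside them. The granule transcripts Camp and Ngp reached at most 0.681 and 0.0785 CPM in any library, at or near 0. The summed level of 11 neutrophil genes was 85.2, 46.4, 259 and 99.5 CPM in Erbb3f/f replicates 1 to 4, and 72.6, 53.0, 181 and 187 CPM in Erbb3d/d replicates 1 to 4. It was thus highest in Erbb3f/f replicate 3, where Ltf and Lcn2 were near the middle of the 8 libraries. The next highest sums were in Erbb3d/d replicates 4 and 3, which were also the highest libraries for Ltf and Lcn2. Erbb3d/d replicate 2, the lowest library for both genes, had the sum next to the lowest. Of 5 neutrophil genes tested, 2 had a log2 fold change above 0, against 48% of all genes. A slope on Epcam was called for 0 of the 5, against 6.69% of all genes. Csf3r, the most abundant, was at 55.1 and 56.5 CPM in the 2 labels, and S100a8 had the smallest p-value (edgeR adjusted p = 0.889). Their part in the levels of Ltf and Lcn2 was not tested.

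C3 was highest in the library with the most macrophage RNA. The summed level of 9 macrophage markers was 1966, 1228, 3119 and 1707 CPM in Erbb3f/f replicates 1 to 4, and 2381, 1948, 2223 and 2281 CPM in Erbb3d/d replicates 1 to 4. Erbb3f/f replicate 3 was the top library for both. Erbb3d/d replicates 1, 3 and 4 came next for both, though not in the same order. At the low end the libraries differed, since C3 was lowest in Erbb3d/d replicate 2 and the macrophage sum in Erbb3f/f replicate 2. The neutrophil sum was also highest in Erbb3f/f replicate 3, at 259 CPM, and next in Erbb3d/d replicate 4, as C3 was. Lyz2, a macrophage lysozyme and the most abundant, was at 1042 and 1127 CPM in the 2 labels, and Csf1r, with the smallest p-value, had a log2 fold change of 0.21 (edgeR adjusted p = 0.659). The part of macrophages or neutrophils in the level of C3 was not tested.

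The other complement genes did not follow a single direction. Of 13 tested, 9 had a log2 fold change above 0, against 48% of all genes, and 4 below, with a median of 0.17. Of the 13, 0 were called, against 0% of all genes. C1s1, the protease of the first component and the most abundant, was at 521 and 495 CPM in Erbb3f/f and Erbb3d/d. Cfi, the protease that inactivates C3b, had the smallest p-value, a log2 fold change of 1.07 (edgeR adjusted p = 0.299). It was also the 1 of 13 complement genes with a called slope on Epcam, 1.1, against 4.05% of all genes with a positive call. A single gene says little of the list.

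**Figure D5:**
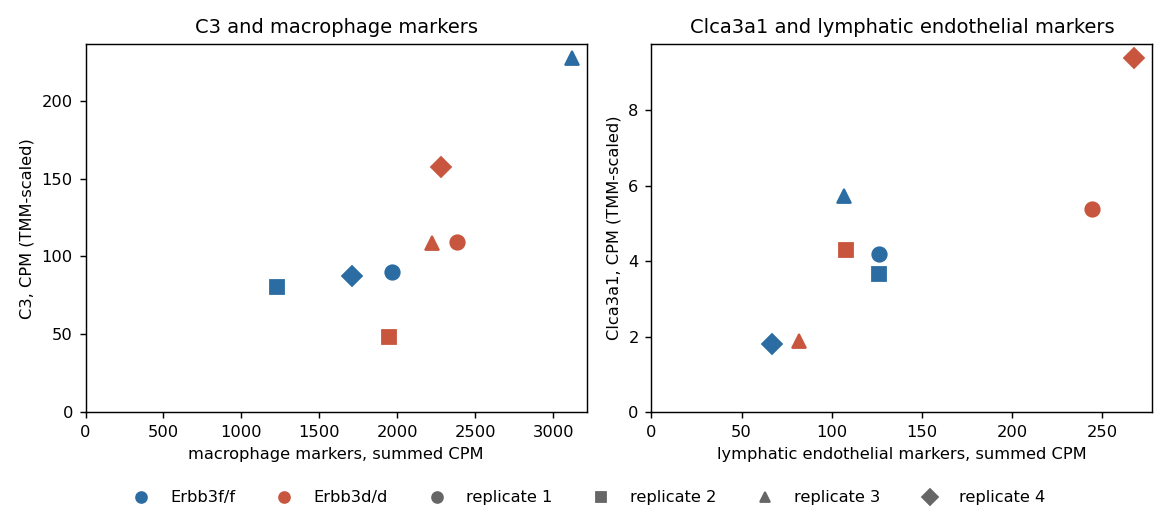
C3 against the summed CPM of 9 macrophage markers (left) and Clca3a1 against the summed CPM of lymphatic endothelial markers (right) in 8 libraries, both axes linear from 0, with colours for the labels and symbols for replicates 1 to 4. Erbb3f/f replicate 3 is highest on both axes at left, at 227 and 3119 CPM, and Erbb3d/d replicate 4 at right, at 9.38 and 268 CPM.

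Clca3a1 is known from lymphatic endothelium as well as from epithelia. The summed level of 6 lymphatic endothelial markers was 126, 126, 107 and 66.9 CPM in Erbb3f/f replicates 1 to 4, and 244, 108, 81.6 and 268 CPM in Erbb3d/d replicates 1 to 4. Both Clca3a1 and this sum were highest in Erbb3d/d replicate 4 and lowest in Erbb3f/f replicate 4, with Erbb3d/d replicate 3 next to the lowest. The order differed elsewhere, since Erbb3f/f replicate 3 came next to the highest for Clca3a1, at 5.73 CPM, but had a lymphatic sum of 107 CPM, below those of 5 other libraries. Lyve1, a hyaluronan receptor and the most abundant, was at 37.1 and 69.8 CPM in the 2 labels. Prox1, the lymphatic transcription factor with the smallest p-value, had a log2 fold change of 0.83 (edgeR adjusted p = 0.464). Ccl21a had no reads in any library, and the part of these cells in the level of Clca3a1 was not tested.

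Relatives of the 7 genes were read from their own rows. Of 20 relatives, 10 were tested, 9 with a log2 fold change above 0, against 48% of all genes. Of the 10, 0 were called, against 0% of all genes. The slope on Epcam was called for 4, all positive, against 4.05% of all genes, and they are named after their values were seen. Besides Muc4 and Clca1, which are on both lists, these were the mucin Muc20 (slope 1.65) and the deiminase Padi4 (slope 0.91). Exons of Muc4 and Muc20 overlap on opposite strands, so reads there cannot be assigned to either and their slopes may not be independent. Meltf, a relative of Ltf, had the smallest p-value, with a log2 fold change of 0.94 (edgeR adjusted p = 0.396).

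Finally, the genes with the most similar pattern were taken for each of the 6 tested genes, by Pearson's r of log2(CPM + 0.5) over 8 libraries against 14517 genes of at least 1 CPM. The values are descriptions of the top of a long list, and all libraries share their scaling. Lcn2 was the gene ranked 2 for Ltf, and Ltf the gene ranked 2 for Lcn2 (r = 0.977). Ahead of them stood Map2k4, a kinase gene, for Ltf (r = 0.990) and Hjurp, a centromere chaperone gene, for Lcn2 (r = 0.983). Map2k4 ranged only from 94.4 to 109 CPM, whereas Ltf ranged from 45.2 to 220 CPM. Padi1 was most like 9130017N09Rik (r = 0.989) and the epithelial protease gene St14 (r = 0.987). Muc1 was most like 0610040J01Rik and Barx2, a homeobox gene (r = 0.977 each). C3 was most like Zfp277 (r = 0.974) and Myo1f, a myosin gene of leukocytes (r = 0.973), and Clca3a1 was most like the claudin gene Cldn11 (r = 0.959) and Pip5k1c (r = 0.954).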

How the data were processed

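Per the submitters' processing notes, HISAT2, SAMtools, HTSeq and StringTie were used with mm10 (GRCm38); versions, annotation and counting options are not given in the sources used here. The authors deposited raw read counts per gene symbol, 1 table per library, with no normalization. The last 5 lines of each table name no gene and were left out. Of all entries, 27.0% to 29.1% were counted in genes. Those in no annotated feature were 48.3% to 50.8%, and the remaining left-out lines held 20.9% to 24.0%.

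Libraries were grouped by their titles. The main test was that of edgeR 4.0.16 under R 4.3.3 (filterByExpr, TMM scaling, robust quasi-likelihood test, Benjamini-Hochberg adjustment over all tested genes, threshold 0.05). The SE of a log2 value is its size divided by the square root of the quasi-likelihood F. CPM are counts over TMM-scaled library size. The slope on Epcam used log2(CPM + 0.5) of Epcam as the only term. Correlations and ratios were tested by exact permutation over all 40320 orders or 70 assignments. DESeq2 1.42.0, other scalings, no filter, other epithelial references, covariates, a replicate block and left-out libraries were alternatives. The edgeR fits of genotype and of the slope, but not DESeq2 or the permutation tests, were first run on simulated data. The simulated effects were larger than those fitted for the secretory genes, so that run does not show how well smaller effects are found.

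The members and the 14 other gene lists were chosen with earlier results of these data known. Named genes are the 7 members, Epcam, Erbb3, the 2 genes most alike to each tested member, the most abundant and smallest-p gene of each list, and defining markers at 0. Outside that rule, Esr1, the granule transcripts Camp and Ngp, and the members of small counts of called slopes are named, chosen after their values were seen. List symbols were matched through RefSeq synonyms where the tables use an older name. Positions and exon lengths are from GENCODE vM21.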

Additional observations from a re-analysis of the deposited data

Results flagged for a closer look

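Among 34 groups of 4 libraries (the CPM of each gene and its ratio to Epcam, by label), 4 held a value far from the rest by Dixon's criterion, and 1.7 would be expected at 1 in 20. Ltf was at 132 CPM in Erbb3f/f replicate 4, the nearest other library of that label being at 70.7. C3 was at 227 CPM in Erbb3f/f replicate 3, the nearest being at 90.3. The ratio of C3 to Epcam in the same library was 3.74, the nearest being 1.32. The ratio of Clca3a1 to Epcam was 0.00939 in Erbb3d/d replicate 3, the nearest being 0.0428.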

How the results depend on the processing

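The count of secretory genes called between the labels was 0 under all 16 alternatives, left-out libraries included (edgeR and DESeq2), while over all genes DESeq2 called 261, edgeR 259 without Erbb3d/d replicate 2 and 52 with the replicate block. Epcam between the labels was called by DESeq2 (log2 fold change 0.99), and leaving out 1 library gave 0.83 to 1.18. The count called for a slope on Epcam, 4 in the report, was 2 with Krt8 or with Cdh1 in place of Epcam (Muc1 and Padi1), 1 with the replicate block (Padi1; adjusted p of Ltf 0.0551, Lcn2 0.0768 and Muc1 0.103 in edgeR) and 0 with Erbb3d/d replicates 3 and 4 both left out, an alternative chosen after seeing the data. It ran from 1 (Padi1), without Erbb3d/d replicate 4, to 4 when 1 library was left out, and was 2 without Erbb3d/d replicate 3 (Lcn2 and Padi1) or without Erbb3f/f replicate 1 (Muc1 and Padi1). Over all genes, slope calls fell from 976 to 339 with Krt8, 226 with Cdh1 and 417 with the replicate block. They were 301 without Erbb3d/d replicate 4, 328 without Erbb3d/d replicate 3 and 586 without Erbb3f/f replicate 1. Without both Erbb3d/d replicates 3 and 4 there were 0. The count with a correlation p under 0.05 ran from 3 to 4, and that with a ratio p under 0.05 from 0 to 1, in Muc1 (-0.60 without Erbb3f/f replicate 3) or C3 (-1.38 without Erbb3f/f replicate 4).

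Adding the epithelial list mean turned the fold changes (log2) of Ltf, Muc1, Lcn2 and Padi1 to -0.36, -0.50, -0.29 and -0.15, and adding Epcam to -0.87, -0.69, -0.88 and -0.46. Without Erbb3d/d replicates 3 and 4 those of Ltf, Muc1 and Lcn2 were -0.12, -0.14 and -0.081. The slope of C3 was 0.17 with the genotype added. That of Clca3a1 was -0.37 with the genotype added, -0.11 with the replicate block and -0.41 without Erbb3d/d replicates 3 and 4. The log2 ratio turned to 0.082 for Ltf and 0.21 for Lcn2 with Cdh1, 0.029 for Lcn2 with Krt8 and -0.0014 for Padi1 with a pseudocount of 2. The correlation of C3 was -0.050 with Krt8 and -0.17 with Cdh1. With 1 library left out the sign also turned within these ranges: for C3, fold change -0.44 to 0.30, slope -0.35 to 0.49 and correlation -0.23 to 0.58; for Clca3a1, -0.0053 to 0.72, -0.71 to 0.51 and -0.65 to 0.38; and for the log2 ratio of Ltf -0.43 to 0.0022, of Lcn2 -0.47 to 0.23 and of Padi1 -0.079 to 0.22. The causes were not tested.

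Deviations from the group means correlated at 0.241, 0.172, 0.0998 and 0.152 between same-numbered libraries, all above 0. Other pairs ran from -0.307 to 0.318, the highest being Erbb3f/f replicate 4 with Erbb3d/d replicate 3. The labels do not say that the numbers pair the libraries, so the main fits were unpaired and the replicate block was an alternative. Whether same-numbered libraries share a batch was not tested. Krt4 was limited by depth, at 0 to 8 reads.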

Other observations

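Krt4 stayed low in a library rich in other stratified keratins. In Erbb3f/f replicate 4 the summed level of 8 genes of stratified epithelium was 165 CPM, against 4.55 to 30.7 CPM in the other 7 libraries. Krt5, a basal keratin and the most abundant of them, reached 70.4 CPM there, while Krt4 had 1 read. Of the 8 genes 4 were tested, 1 with a log2 fold change above 0, against 48% of all genes. Of the 4, 0 were called, against 0% of all genes. Ivl, the envelope protein involucrin, had the smallest p-value (edgeR adjusted p = 0.392). It also had the 1 called slope on Epcam, 2.34, against 4.05% of all genes with a positive call.

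Gland genes were sparse. Cxcl15, a gland-secreted chemokine read from the row Il8 and the most abundant of 6, was at 22.9 and 16.2 CPM in Erbb3f/f and Erbb3d/d. Sox9, with the smallest p-value, was at 8.97 and 18.2 CPM (edgeR adjusted p = 0.319). Its slope on Epcam was the 1 of 3 called, against 4.05% of all genes with a positive call. Spink1 had no reads in any library.

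Of 10 stromal markers, 7 had a log2 fold change below 0 and 3 above, against 48% of all genes above. Of the 10, 0 were called, against 0% of all genes. The slope on Epcam was called for 4, all negative, against 2.64% of all genes: Pdgfra, Hoxa10, Hoxa11 and Nr2f2, named after their values were seen. Pdgfra, a fibroblast receptor, had the smallest p-value for genotype (edgeR adjusted p = 0.205). Of 6 blood endothelial markers, 5 were above 0, against 48% of all genes, and 0 were called, against 0%. A slope was called for 0 of the 6, against 6.69% of all genes. Cdh5 was the most abundant at 196 and 151 CPM, and Kdr had the smallest p-value (edgeR adjusted p = 0.564). Tagln, the most abundant smooth muscle marker, was at 281 and 661 CPM, and Cnn1, with the smallest p-value, had a log2 fold change of 1.19 (edgeR adjusted p = 0.281).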
